A study of Rattus norvegicus with 10 samples.

Results

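The hippocampus is built of subfields whose principal neurons express different genes, and 10 of those genes are described here as a readout of subfield composition. They were chosen by symbol, as known markers and not by a threshold on their values: Prox1, C1ql2, Dsp and Calb1 for the dentate gyrus, Wfs1, Fibcd1 and Pou3f1 for CA1, and Amigo2, Bok and Nptx1 for CA2 and CA3. Of these 10, 9 were among the 17168 gene symbols of the expression tables and all 9 passed the filter on low counts. Dsp was not analysed here. RNA was prepared from left hippocampi of 10 female rats of the TgF344-AD line, which carries human APP and presenilin transgenes under the mouse prion promoter and is used to model Alzheimer's disease. All 10 animals carried the transgene and were taken at 11 months of age, after ketamine and xylazine anaesthesia and perfusion with phosphate-buffered saline. The untreated group was 5 animals on ordinary rodent chow, and the RG2833 group was 5 animals on chow with 750 mg of RG2833 per kg for 6 months, from 5 months of age. A blue food dye told the 2 chows apart. RG2833 inhibits the histone deacetylases HDAC1 and HDAC3, enzymes that remove acetyl groups from histones. No non-transgenic animals enter these comparisons, so they describe the drug in transgenic females only.

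Information enters the hippocampus through the granule cells of the dentate gyrus, whose mossy fibres contact the pyramidal cells of CA3, and CA3 in turn projects to CA1. CA2 is a small field between CA3 and CA1. Each field keeps its own transcription factors, calcium buffers and adhesion molecules into adulthood, and within a field many genes also differ between the dorsal and the ventral pole. The amount of a marker in RNA from a whole hippocampus therefore depends on how much of each field the sample holds as well as on expression per cell. In such bulk RNA, fewer cells of a type and less RNA per cell cannot be told apart.

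Total estimated counts ranged from 8764266 to 11311673 per library, and the 9 markers were covered by between 101 and 20037 counts per animal, far above the floor of 3 counts. Levels are given as CPM, counts relative to library size, after TMM scaling, which sets the libraries to a common level on the assumption that most genes do not change. Some libraries stood apart. Untreated replicate 1 held choroid plexus RNA: the summed CPM of the 8 choroid plexus genes was 2502 there and between 6.50 and 49.8 in the other 9 animals. This sum was taken over library totals, without TMM scaling. On the first principal component of log2 CPM, untreated replicate 4 scored 11.5, within the RG2833 range of 9.18 to 25.3, whereas the other untreated animals scored between -27.8 and -13.8. Ribosomal RNA loci took 2.70% to 5.36% of the counts in untreated and 1.13% to 1.96% in RG2833 animals, without overlap. This share cannot be told apart from the treatment, and its part in the results below was not tested beyond the fit given with the processing alternatives.

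Among the 9 markers tested, 1 was called, which means a Benjamini-Hochberg adjusted p below 0.05 over 11791 genes in edgeR's quasi-likelihood test. It was Nptx1, higher in RG2833 animals. Over all tested genes 5.08% were called, 2.41% higher and 2.67% lower, so 1 of 9 is too small a count to read against that background. At an unadjusted p under 0.05 stood 2 of the 9, Nptx1 and Bok, against 24.5% of all tested genes. The values of the groups did not overlap for 1 of the 9, Nptx1, against 7.27% of all tested genes (3.8% with RG2833 higher and 3.47% with RG2833 lower). The median log2 fold change of the 9 was 0.52, with 7 above and 2 below 0, beside a median of -0.0035 and 49.4% above 0 over all tested genes. The plot of fold changes shows how wide the errors of the remaining 8 were.

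**Figure D1:**
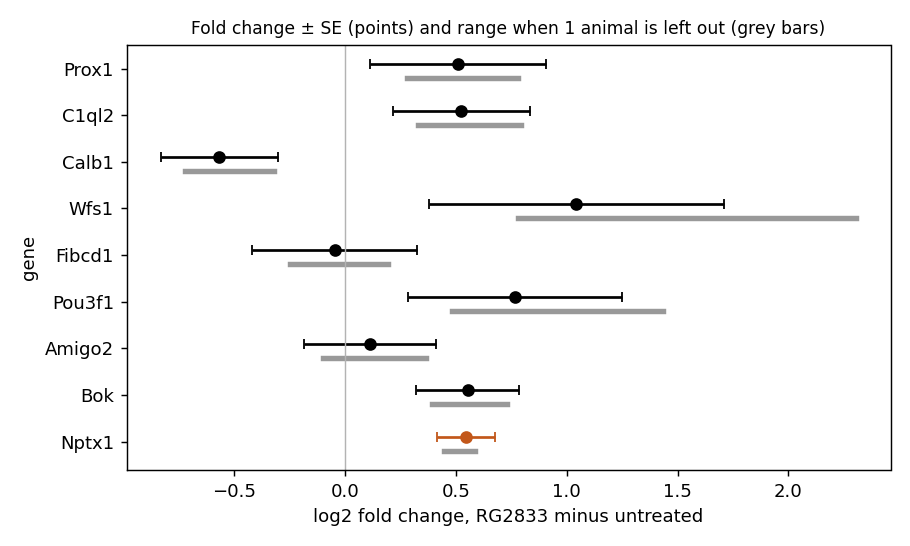
Log2 fold change of each marker (x axis, RG2833 minus untreated) with its standard error; the orange point passed an edgeR adjusted p under 0.05 and the black ones did not. Grey bars span the 10 fits that each left out 1 animal: the Wfs1 bar reaches 2.30, whereas the Nptx1 bar stays between 0.44 and 0.59.

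The dentate markers Prox1 and C1ql2 had their lowest values in the same 2 untreated animals. Prox1 encodes the homeobox factor that sets and maintains granule cell identity. In untreated replicates 1 to 5 its level was 12.4, 42.7, 11.2, 54.9 and 42.7 CPM, and in RG2833 replicates 1 to 5 it was 48.6, 35.9, 51.7, 28.8 and 69.0 CPM. Replicates 1 and 3 of the untreated group were thus below every other animal, and the remaining untreated values lay inside the RG2833 range. The difference, 0.51 ± 0.40 (log2, SE, n = 5 per group), did not pass (edgeR adjusted p = 0.454).

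C1ql2 encodes a secreted C1q-like protein that acts at mossy fibre synapses. Its level was 36.5, 147, 49.9, 119 and 84.0 CPM in untreated replicates 1 to 5, against 165, 98.1, 137, 109 and 118 CPM with RG2833. Again untreated replicates 1 and 3 were the lowest of all 10, and the log2 difference of 0.52 ± 0.31 (SE) did not pass (edgeR adjusted p = 0.316). Calb1 encodes calbindin, a calcium buffer abundant in granule cells that CA1 pyramidal cells and some interneurons also contain. It did not share this order. Its level was 55.9, 169, 84.0, 77.3 and 132 CPM without the drug and 87.7, 71.9, 56.3, 82.7 and 51.0 CPM with it, with the maximum in untreated replicate 2 and the minimum in RG2833 replicate 5. Calb1 was the one dentate marker with a negative difference, -0.57 ± 0.26 (log2, SE; edgeR adjusted p = 0.205), and the groups overlapped. Across the 10 animals Pearson's r of log2 CPM was 0.88 between Prox1 and C1ql2 and 0.060 between Prox1 and Calb1, given as descriptions of animals that differ in treatment. For deviations from the group means these were 0.843 and 0.335. Between C1ql2 and Calb1 r was 0.237, and 0.64 for such deviations.

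Among the CA1 markers, Wfs1 and Pou3f1 divided the animals across the treatment groups, and Fibcd1 followed another order. The promoters of 2 of them are shown because Wfs1 and Fibcd1 are assigned to the same field but shared only 2 of their 4 highest animals (RG2833 replicates 2 and 4), and that of Amigo2 is shown beside them as a marker of another field. RefSeq promoters (GRCr8 build) were at hand for 5 of the 10 members, namely Amigo2, C1ql2, Dsp, Fibcd1 and Wfs1. Each line gives the 250 bases before the annotated start of the gene on its own strand, in lower case with CpG dinucleotides in capitals; Wfs1 is at chr14:78034955-78035204 on the plus strand, Fibcd1 at chr3:35524143-35524392 on the minus strand and Amigo2 at chr7:130273736-130273985 on the minus strand.
Wfs1: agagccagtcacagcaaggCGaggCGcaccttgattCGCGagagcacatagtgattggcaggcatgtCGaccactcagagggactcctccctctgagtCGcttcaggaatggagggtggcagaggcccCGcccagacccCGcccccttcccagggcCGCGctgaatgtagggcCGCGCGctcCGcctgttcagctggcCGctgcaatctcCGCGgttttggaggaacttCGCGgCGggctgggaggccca
Fibcd1: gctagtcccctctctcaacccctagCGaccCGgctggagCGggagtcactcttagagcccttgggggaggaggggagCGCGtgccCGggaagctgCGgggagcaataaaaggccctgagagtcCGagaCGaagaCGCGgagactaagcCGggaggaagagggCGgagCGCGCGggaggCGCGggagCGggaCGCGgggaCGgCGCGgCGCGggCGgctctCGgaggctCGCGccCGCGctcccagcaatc
Amigo2: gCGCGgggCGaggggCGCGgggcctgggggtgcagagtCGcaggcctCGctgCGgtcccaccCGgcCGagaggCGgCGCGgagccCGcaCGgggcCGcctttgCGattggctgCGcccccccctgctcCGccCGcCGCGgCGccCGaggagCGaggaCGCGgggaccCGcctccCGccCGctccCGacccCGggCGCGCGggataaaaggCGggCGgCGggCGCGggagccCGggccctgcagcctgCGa
The windows hold 20, 32 and 42 CpG dinucleotides for Wfs1, Fibcd1 and Amigo2, against a median of 5 over 33465 RefSeq promoters of this length. Because Pou3f1 is a POU-domain factor, the octamer ATGCAAAT was searched on both strands. It was found in none of the 3 windows and in 1.56% of all promoters, which says only that these letters are absent from the windows. The GC box GGGCGG, found in 30.5% of all promoters on either strand, occurred 2 times before Wfs1, 2 times before Fibcd1 and 3 times before Amigo2. Expression was the only measurement made, so nothing here bears on binding at these promoters.

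Wfs1 encodes wolframin, a membrane protein of the endoplasmic reticulum that is strong in dorsal CA1. It was 88.0, 78.7, 64.6, 588 and 63.9 CPM in untreated replicates 1 to 5 and 108, 605, 542, 384 and 182 CPM in RG2833 replicates 1 to 5. Thus 4 untreated animals lay below all RG2833 animals, whereas untreated replicate 4 was the second highest of all 10. The range within the untreated group was 9.20-fold. With all animals the difference was 1.04 ± 0.67 (log2, SE) and did not pass (edgeR adjusted p = 0.354). Without untreated replicate 4 it was 2.30 (edgeR adjusted p = 0.00603), so whether Wfs1 was called depended on this animal. In that fit calls rose over all genes as well, to 1556 of 11849 tested, against 599 of 11791 with all animals.

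Pou3f1, a POU-domain transcription factor, followed Wfs1 closely. Its level was 22.9, 27.3, 43.0, 119 and 27.7 CPM without the drug and 33.7, 140, 88.3, 106 and 41.1 CPM with it. The 4 animals with the highest Wfs1 (untreated replicate 4 and RG2833 replicates 2, 3 and 4) were also the 4 highest for Pou3f1, a set of 4 that 0.984% of all tested genes shared, in any order. Its difference was 0.77 ± 0.48 (log2, SE; edgeR adjusted p = 0.348) with all animals and 1.43 (edgeR adjusted p = 0.0283) without untreated replicate 4. That last fit called 1556 of 11849 tested genes. Fibcd1 encodes a membrane receptor with a fibrinogen-like domain. It was 88.3, 120, 365, 251 and 298 CPM without the drug and 112, 326, 214, 279 and 158 CPM with it. Untreated replicates 3 and 5, the lowest of all for Wfs1, were the highest and the third highest for Fibcd1. The log2 difference of Fibcd1 was -0.05 ± 0.37 (SE; edgeR adjusted p = 0.951), and its sign changed under limma and 7 other fits.

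**Figure D2:**
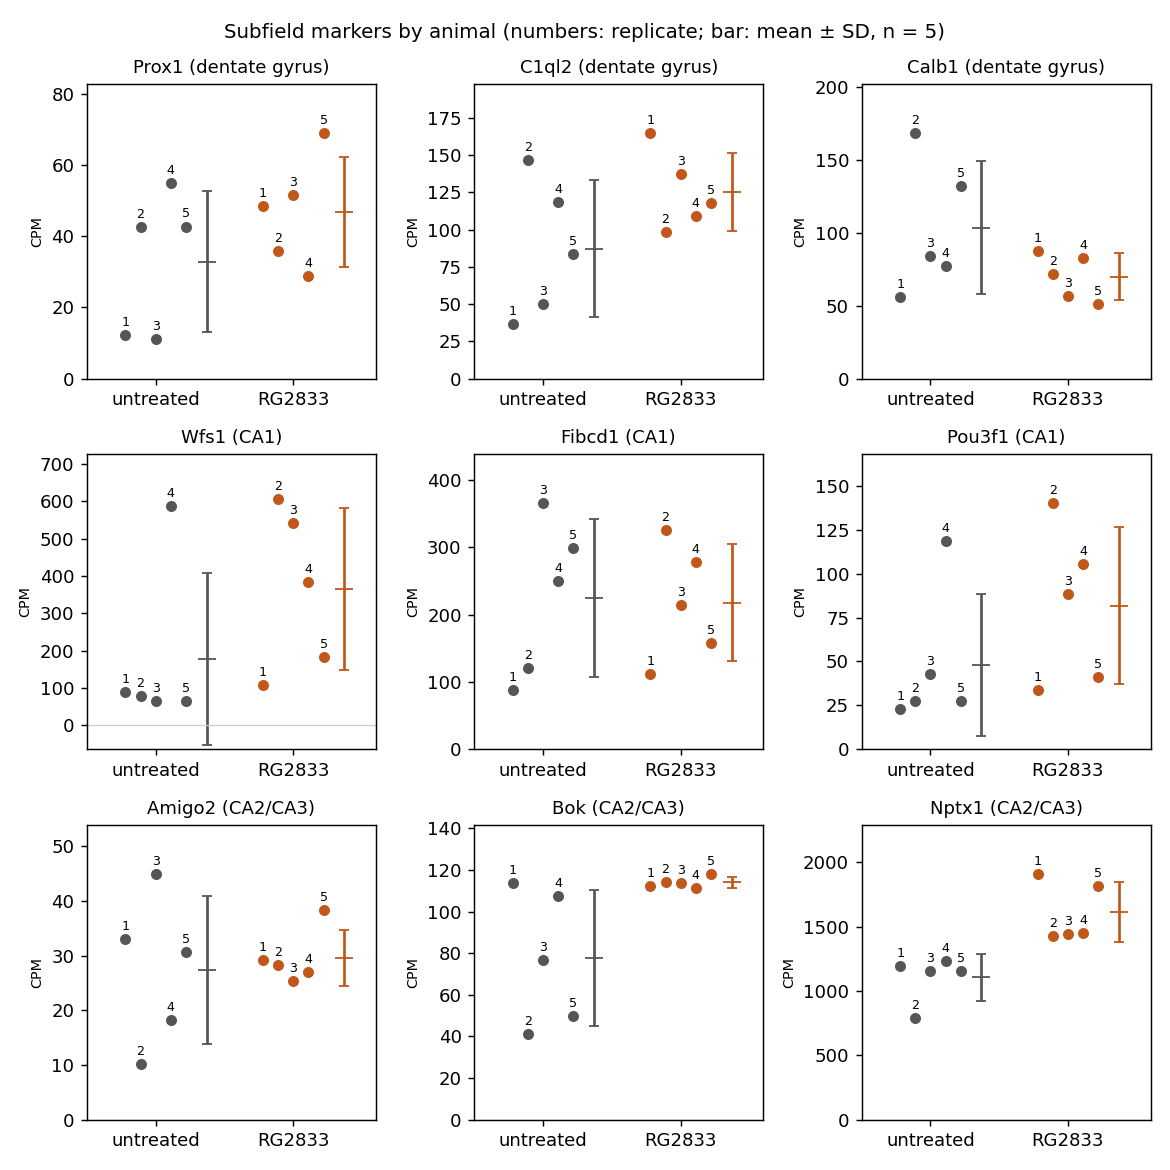
CPM (y axis, linear scale) of each of the 9 markers in the untreated (grey) and RG2833 (orange) animals; numbers are replicates and bars give mean ± SD (n = 5), with a lower SD limit below 0 for untreated Wfs1. Untreated replicate 4 stands among the RG2833 animals for Wfs1 and Pou3f1, the Bok values of RG2833 animals form a line between 111 and 118, and only Nptx1 separates the groups completely.

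Among the CA2 and CA3 markers, Nptx1 rose with RG2833. It encodes neuronal pentraxin 1, a secreted protein that gathers AMPA receptors at excitatory synapses, and is expressed in other excitatory neurons besides those of CA3. In untreated replicates 1 to 5 it was 1193, 788, 1158, 1232 and 1155 CPM, and in RG2833 replicates 1 to 5 it was 1911, 1430, 1447, 1452 and 1819 CPM. Each RG2833 animal was above each untreated animal, and RG2833 replicates 1 and 5 were the highest. Its mean of 1105 ± 180 CPM in untreated animals compared with 1612 ± 234 CPM under RG2833 (SD, n = 5). On the log2 scale this was a rise of 0.54 ± 0.13 (SE), with an edgeR adjusted p = 0.0386. The fold change stayed between 0.44 and 0.59 when any 1 animal was left out, but the call held in 3 of these 10 fits, namely without untreated replicate 2, 4 or 5 (edgeR adjusted p from 0.018 to 0.107 over the 10). It was also lost with the replicate block (edgeR adjusted p = 0.0536) and with all 5 covariates (edgeR adjusted p from 0.0843 to 1), 3 of which brought the log2 difference to between 0.17 and 0.32.

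Bok encodes a member of the Bcl-2 family of cell death regulators. It was 114, 41.0, 76.9, 107 and 49.7 CPM in untreated animals, and in RG2833 animals it was 112, 114, 114, 111 and 118 CPM. All RG2833 values lay within 1.06-fold of each other, against 2.77-fold in the untreated group, where replicate 1 lay inside the RG2833 range and the other 4 animals below it. The difference of 0.55 ± 0.23 (log2, SE) did not pass (edgeR adjusted p = 0.166). Amigo2 encodes an adhesion molecule with leucine-rich repeats that marks CA2 and the adjoining CA3. Its level was 33.1, 10.1, 44.9, 18.1 and 30.6 CPM without the drug and 29.1, 28.2, 25.3, 27.0 and 38.3 CPM with it. Here the untreated animals held both the lowest value (replicate 2) and the highest (replicate 3), and the difference was 0.11 ± 0.30 (log2, SE; edgeR adjusted p = 0.849).

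The markers varied more between animals than most genes did. Among untreated animals the SD of log2 CPM was at or above the 95th percentile of all tested genes for 8 of the 9 markers, and Nptx1 was the exception at percentile 63.1. In RG2833 animals this held for 4 of the 9, namely Prox1, Wfs1, Fibcd1 and Pou3f1, while Bok was at percentile 0.874. The median SD of the 9 was 0.84 in untreated and 0.34 in RG2833 animals, beside 0.21 and 0.14 over all tested genes. The SD was smaller in RG2833 animals for 9 of 9 markers, and it was smaller there for 75.6% of all tested genes. No test of the difference in spread was made.

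Subfield balance was expressed per animal as the mean over the 3 tested markers of a field of log2 CPM centred on the gene's mean over all 10 animals. These scores are descriptions and carry no test. The dentate score ran from -1.14 (replicate 1) and -0.84 (replicate 3) to 0.65 (replicate 2) in untreated animals and from -0.037 to 0.45 in RG2833 animals. For CA1 the untreated range was -1.14 to 1.06, with replicate 4 the only value above 0, and the RG2833 range was -0.74 (replicate 1) to 1.28 (replicate 2). The CA2 and CA3 score ran from -1.09 (untreated replicate 2) to 0.16 in untreated animals and from 0.13 to 0.46 in RG2833 animals. All 3 scores overlapped between the groups.

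Differences between fields showed the same animals from another side. Dentate minus CA1 was 0.24 ± 0.99 in untreated and -0.24 ± 1.03 in RG2833 animals (SD, n = 5), a difference of -0.48, smaller than either SD. It ran from -0.83 to -0.13 when 1 animal was left out (without RG2833 replicate 1 and untreated replicate 2), and was -0.077 without Calb1 and -0.090 with the wider lists added. Dentate minus CA2 and CA3 was 0.093 ± 1.23 against -0.093 ± 0.17, and untreated replicates 1 and 2 marked its ends at -1.30 and 1.74. CA1 minus CA2 and CA3 was -0.14 ± 0.91 against 0.14 ± 0.96. The sign of these last 2 group differences turned under some settings: dentate minus CA2 and CA3 (-0.19) without Calb1 (0.21), without untreated replicate 2 (0.23), with the median over genes or with the wider lists, and CA1 minus CA2 and CA3 (0.29) without Wfs1 (-0.038) or without untreated replicate 1 (-0.00052). Within RG2833, replicates 1 and 5 had a low CA1 and a high CA2 and CA3 score, and replicates 2, 3 and 4 the reverse. Without Calb1 the dentate score was 0.71 higher in RG2833 animals, against 0.31 with it.

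**Figure D3:**
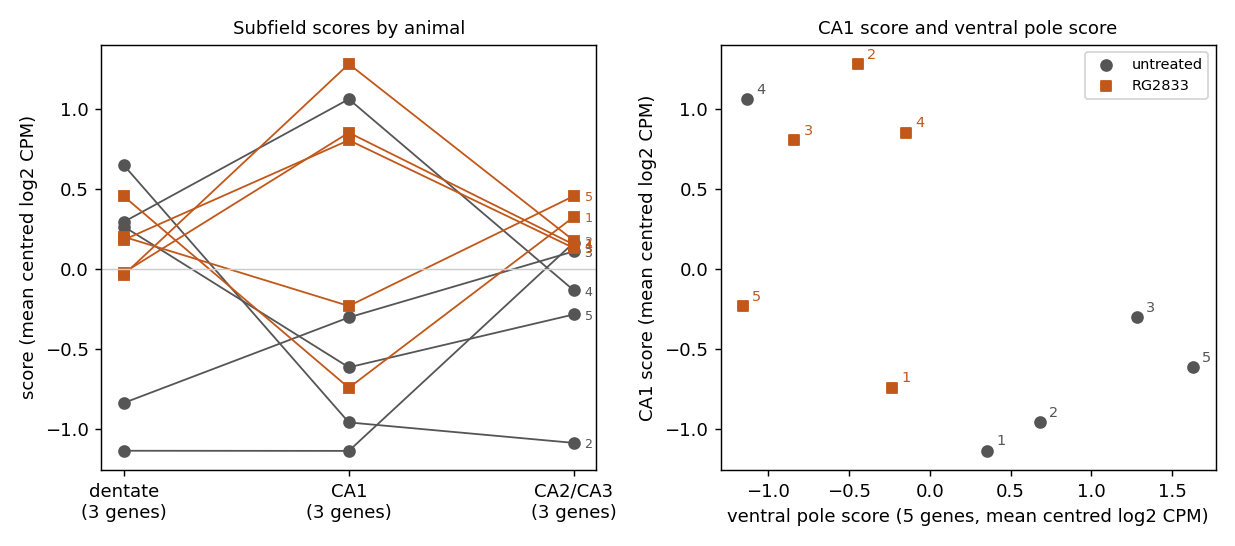
Left, score of each field (y axis, mean centred log2 CPM) for each animal, joined by a line; right, CA1 score (y axis) against the score of 5 ventral pole genes (x axis, same scale). Numbers are replicates; untreated replicate 4 is at -1.13 on the ventral score beside RG2833 animals, while the other untreated animals lie between 0.36 and 1.63.

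Other genes known to mark each field, listed from general knowledge, gave a wider view. Of 15 further dentate genes, 9 were tested and 0 were called (edgeR adjusted p under 0.05), with 8 of 9 fold changes above 0 and a median of 0.45. Sema5a, an axon guidance molecule, averaged 233 ± 92.9 CPM without and 324 ± 71.8 CPM with the drug (SD, n = 5; edgeR adjusted p = 0.26), with its 2 lowest values, 127 and 156 CPM, in untreated replicates 3 and 1. Ahcyl2, C1ql3, Plk5, Stxbp6 and Trpc6 also had their 2 lowest values in these 2 animals, and Pdzd2 and Il16 did not. Ahcyl2 averaged 134 ± 29.4 against 132 ± 12.1 CPM. Over all tested genes, 7.26% had their 2 lowest values in these 2 animals.

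For CA1, 4 of 6 listed genes were tested and 0 were called (edgeR), with a median log2 fold change of 0.22. Nov, a matricellular protein, had the same 4 highest animals as Wfs1. Nov reached 139 CPM in untreated replicate 4, and the other 4 of that group lay between 49.4 and 73.4 CPM. Mpped1 shared 3 of the 4, and the receptor tyrosine kinase Tyro3 shared 2. Tyro3 was nearly level among untreated animals, from 141 to 151 CPM, so the low Wfs1 of 4 untreated animals was not matched by this CA1 gene.

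For CA2, 5 of 7 listed genes were tested and 1 was called higher, and for CA3, 7 of 9 were tested and 1 was called higher (edgeR; background for higher calls 2.41%). The median log2 fold change was 0.18 for CA2, with 4 above and 1 below 0, and 0.065 for CA3, with 5 above and 2 below 0. Those below 0 were Pcp4 (-0.34), Npy2r (-0.26) and St18 (-0.20), none of them called. Homer3, a postsynaptic scaffold protein of CA3 and other neurons, was 75.8 ± 20.8 CPM without and 126 ± 14.0 CPM with the drug (SD, n = 5). It rose by 0.74 ± 0.16 on the log2 scale (SE), edgeR adjusted p = 0.0296, and its groups did not overlap. When 1 animal was left out the Homer3 call held in 4 of 10 fits. It was lost with the covariates for ribosomal RNA (0.38, edgeR adjusted p = 1), pan-neuronal (0.48, 0.303), ventral pole (0.57, 0.265) and pan-excitatory genes (0.24, 0.845), and held with the choroid plexus covariate and the replicate block. Cacng5, an auxiliary subunit of AMPA receptors found in CA2, was 1.72 ± 0.857 CPM against 4.47 ± 1.30 CPM, from counts between 3 and 65. It rose by 1.38 ± 0.36 on the log2 scale (SE), edgeR adjusted p = 0.0488, also without overlap. Its call held in 2 of 10 such fits, and it was lost under limma-voom (adjusted p = 0.0556), under limma trend with a pseudocount of 0.1 (adjusted p = 0.0664) and in edgeR without the filter on low counts (adjusted p = 0.0536). It was also lost with the replicate block (edgeR adjusted p = 0.0754) and with all 5 covariates (edgeR adjusted p from 0.0888 to 1). Rgs14, a regulator of G protein signalling that restrains plasticity in CA2, was 239 CPM in untreated replicate 4, 102 to 133 CPM in the remaining untreated rats and 199 to 252 CPM under RG2833 (edgeR adjusted p = 0.0725). Rgs14 was called under the DESeq2 Wald test, limma-voom and both limma trend fits, and by edgeR without untreated replicate 4. Dkk3 (462 ± 134 against 609 ± 58.2 CPM), Spock1 (115 ± 36.4 against 119 ± 17.1 CPM) and Necab2 (183 ± 23.4 against 204 ± 7.41 CPM) did not pass. Untreated replicate 2 held the lowest value of the 10 animals for 6 of the 7 tested CA3 genes (all but Npy2r). It was also lowest for Cacng5 and Stard5 of CA2 and for the members Amigo2, Bok and Nptx1. Of the other tested CA2 genes, Pcp4 was highest in this animal, at 211 CPM, and Rgs14 and Necab2 were lowest in untreated replicate 5. Untreated replicate 2 was the lowest animal for 16% of all tested genes.

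General neuronal markers were also higher on average in the RG2833 animals, in which Nptx1, Homer3 and Cacng5 rose, and their part in those results was not tested beyond the fits given with the processing alternatives. All 4 pan-excitatory genes had higher means in RG2833 animals, 0 of them called (edgeR), and their score ran from -0.74 to 0.22 in untreated and from 0.13 to 0.36 in RG2833 animals. Slc17a7, the vesicular glutamate transporter, was 1626 ± 219 and 2081 ± 189 CPM (SD, n = 5; edgeR adjusted p = 0.0689). Of 7 pan-neuronal genes 1 was called, Rbfox3, higher in RG2833 animals at 0.57 ± 0.14 (log2, SE; edgeR adjusted p = 0.04). The background for higher calls was 2.41%. The median log2 fold change of the 7 was 0.24, with 6 above 0, among them Eno2 at only 0.065, and Stmn2 below 0 at -0.13. The Rbfox3 call held in 2 of the 10 fits that left out 1 animal, namely without untreated replicate 4 or 5, and was lost with the replicate block (edgeR adjusted p = 0.0576) and with each covariate, of which the pan-neuronal score contains Rbfox3 itself. The summed level of these 7 was 5949 to 8590 CPM in untreated and 8185 to 9802 CPM in RG2833 animals, lowest in untreated replicate 2. With the pan-neuronal score as a covariate the Nptx1 difference was 0.23 (edgeR adjusted p = 0.394), and with the pan-excitatory score, a fit chosen after the data were seen, it was 0.17 (edgeR adjusted p = 0.87).

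**Figure D4:**
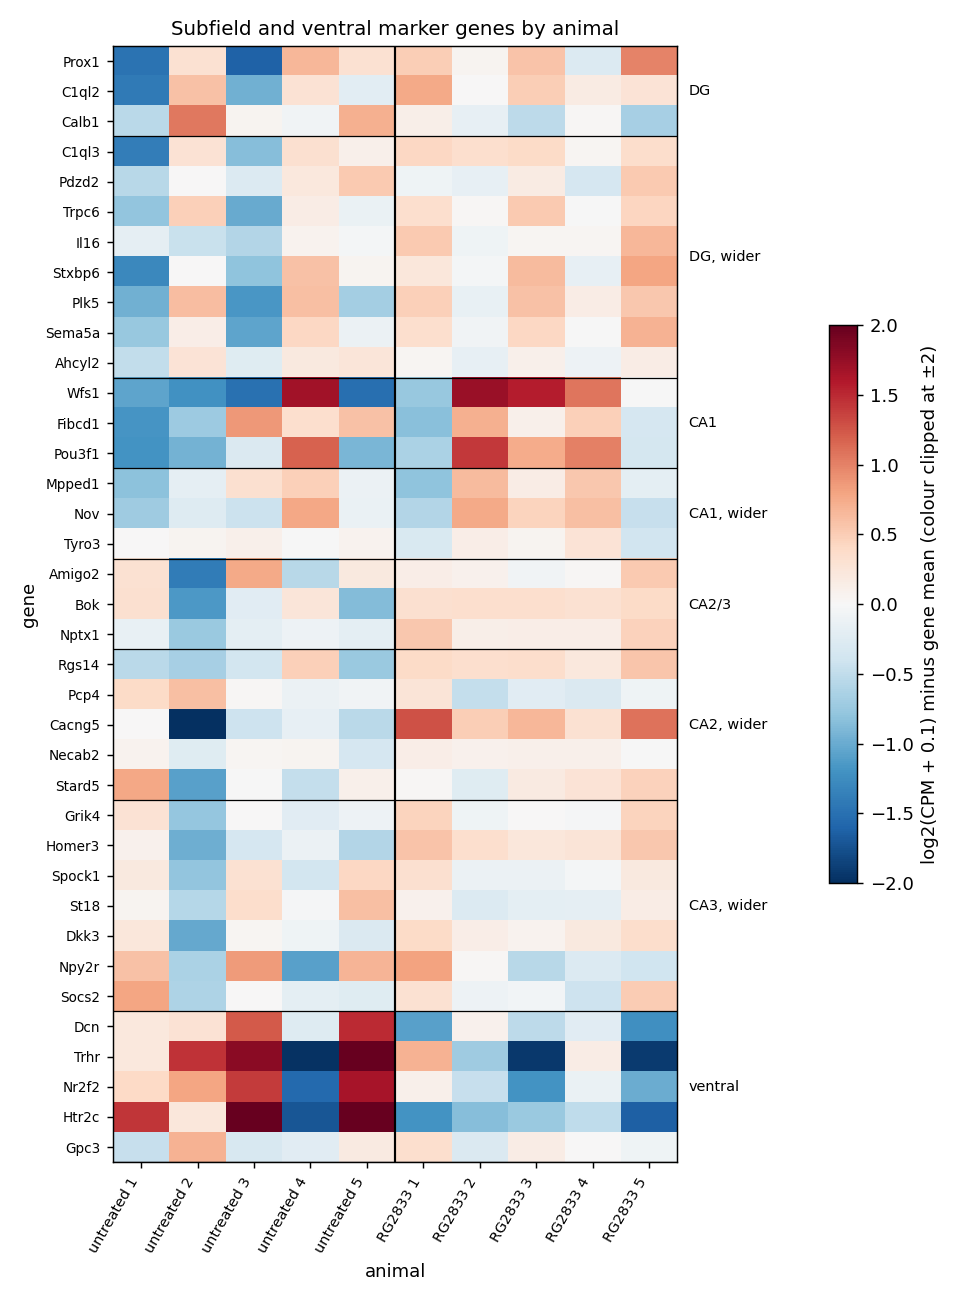
Log2(CPM + 0.1) minus the gene's mean over the 10 animals (colour, clipped at 2 in both directions) for the tested markers, most tested genes of the wider lists and the ventral pole genes; columns are animals, with untreated animals left of the black line. Most dentate rows, though not Calb1 in replicate 3, are low in untreated replicates 1 and 3, most CA2 and CA3 rows are low in untreated replicate 2, and Wfs1 is high where Nr2f2 and Htr2c are low in untreated replicate 4.

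Genes of the ventral pole differed between the animals on a similar scale. Of 6 listed, 5 were tested and 1 was called lower (edgeR; background for lower calls 2.67%), with a median log2 fold change of -1.33. Htr2c, a serotonin receptor, was 88.5, 38.2, 166, 9.96 and 203 CPM without the drug and 14.2, 18.1, 19.5, 23.1 and 10.5 CPM with it. It fell by 2.56 ± 0.60 on the log2 scale (SE; edgeR adjusted p = 0.0353), although untreated replicate 4 was the lowest of all 10. The choroid plexus also expresses Htr2c. The choroid plexus gene Ttr was 3.80 and 14.8 CPM in untreated replicates 3 and 5, where Htr2c was highest, and 2380 CPM in untreated replicate 1. How much choroid plexus RNA added to Htr2c in any animal was not tested.

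Nr2f2, a nuclear receptor of ventral neurons and some interneurons, was 30.9, 40.8, 61.6, 7.91 and 73.8 CPM without the drug and 25.2, 17.0, 10.1, 21.3 and 11.7 CPM with it (edgeR adjusted p = 0.0953). Untreated replicates 3 and 5 were thus highest for both genes, and these 2 animals had the lowest Wfs1. Trhr (edgeR adjusted p = 0.132) and Dcn (edgeR adjusted p = 0.0561) had their 2 highest values in the same 2 animals, and Gpc3 did not. RG2833 replicates 1 and 5 had low Htr2c without a high Wfs1, so the orders of the 2 genes were not simply opposite. With the ventral pole score as a covariate, a fit chosen after the data were seen, the log2 difference was 0.49 for Nptx1 and 0 members were called. How far the dissected hippocampi differed along the dorsoventral axis was not tested.

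Calb2, or calretinin, marks mossy cells of the dentate hilus in some species and also interneurons. It was 24.7, 15.7, 16.7, 7.54 and 21.9 CPM without the drug and 9.25, 8.12, 8.79, 8.28 and 6.28 CPM with it. It fell by 1.08 ± 0.25 on the log2 scale (SE; edgeR adjusted p = 0.0354), with untreated replicate 4 again among the RG2833 values. It was the only called gene of 3 tested on the mossy cell list. The neuropeptide gene Nmb on that list was 8.80 ± 7.38 and 14.9 ± 6.59 CPM (SD, n = 5; edgeR adjusted p = 0.391). When 1 animal was left out, the Calb2 call held in 2 of 10 fits and the Htr2c call in 3. With all animals, Htr2c did not pass under limma-voom (-1.96, adjusted p = 0.151), limma trend (adjusted p = 0.0905 and 0.0927 for the pseudocounts 1 and 0.1) or the replicate block (edgeR adjusted p = 0.125). Calb2 did not pass under limma-voom (adjusted p = 0.0773) or the replicate block (edgeR adjusted p = 0.0754), and neither passed with any covariate, of which the ventral pole score contains Htr2c itself.

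The genes most like each marker were taken as the 3 with the highest Pearson's r of log2 CPM over the 10 animals among 11790 others. As the highest of so many, these r values are descriptions and have no p. For Prox1 they were Ccdc85a, Dapk1 and Pkia (r from 0.974 to 0.98), and for C1ql2 they were Stk32c, Lzts3 and Ap5s1. Wfs1 was most like Arpc2, Mybpc2 and Actr3 (0.953 to 0.969), and Pou3f1 was most like Ttc9, Htr5b and Lsm8. Hpca, a neuronal calcium sensor gene, and Scn4b, a sodium channel beta subunit gene, were among the 3 most like Bok (0.985 and 0.967). Nptx1 was most like Smpd3, Slc17a7 and Cacng5 (0.985, 0.976 and 0.971), of which the last 2 are the glutamate transporter and the CA2 gene described above. Calb1 and Bok, assigned to different fields, ran in opposite order (r = -0.896).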

How the data were processed

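Strand-specific mRNA libraries were made from column-purified RNA, per the labels' protocols. The submitters' processing notes name bcl2fastq 2.17, Bowtie2 2.1.0, RSEM 1.2.15, edgeR and the rn6 build, with no roles given; the annotation and the use of strand in counting are not given in the sources used here. The authors deposited RSEM expected counts per gene symbol with 2 decimals, and a signal table of TMM-scaled CPM. Columns were assigned by sample title. Expected counts were rounded, genes filtered with filterByExpr (11791 kept), scaled by TMM and tested with the quasi-likelihood test of edgeR 4.0.16 in R 4.3.3, RG2833 against untreated, 5 against 5, without covariates. P-values were Benjamini-Hochberg adjusted over all tested genes, and genes under 0.05 were called. SE is the fold change over the square root of F. Own CPM of the members differed from the deposited signal by at most 0.701%. Log2 CPM used a prior count of 2. In counts simulated for this comparison, 180 of 199 changed genes (1 log2 unit) were recovered among 11726, with 11 false calls. Recovery at the spread of the markers, 8 of 9 at or above the 95th percentile of SD in untreated animals, was not tested. Chi-square per degree of freedom within groups was at least 4.6 in 20 pairs, so no 2 libraries of the same group agreed within sampling noise. The labels give no litters or batches, so p-values measure the spread between these animals.

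The members and lists were chosen with earlier results of these data known. The text names all members, of each wider list the called genes and the 2 with the highest mean, and the 3 genes most like each member, except a few genes that are not reported here; C1ql3, Plk5, Stxbp6, Trpc6, Pdzd2, Il16, Nov, Npy2r, Stard5, Pcp4, St18, Trhr, Dcn, Gpc3 and Kcne2 were named after their values were seen. Alternatives were DESeq2 1.42.0, limma 3.58.1, other scalings and filters, covariates, a replicate block and leaving out each animal.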

Additional observations from a re-analysis of the deposited data

Results flagged for a closer look

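In groups of 5, a value was set aside for a closer look when its gap to the nearest other animal exceeded 0.71 of the group's range (Dixon's 95% limit). The 148 groups examined were both treatment groups for the genes named from the lists and for 11 scores and library measures, and 12 passed. A rate of 1 in 20 would give 7.4, but it holds for groups chosen without sight of their values. Nov, C1ql3 and Kcne2 were named after their values were seen, and several of the genes vary together. The 12 can therefore not be read against 7.4. Other listed genes were not examined. Untreated replicate 4 gave 4 of the 12: Wfs1 at 588 CPM against at most 88.0 CPM in the other untreated animals (ratio 0.954), Pou3f1 at 119 against at most 43.0 CPM (0.79), Rgs14 at 239 against at most 133 CPM (0.773), and Nov at 139 against at most 73.4 CPM (0.731). Nptx1 in untreated replicate 2 was 788 CPM against 1155 CPM or more (0.827). Snap25 in RG2833 replicate 1 was 5391 CPM against at most 4546 CPM (0.795). Untreated replicate 1 stood out for the choroid plexus genes Ttr, 2380 against at most 14.8 CPM (0.995), Kcne2, 9.15 against at most 3.80 CPM (0.773), and Clic6, 23.6 against at most 4.65 CPM (0.806), and for Prkcd, 35.6 against at most 16.0 CPM (0.776). Prkcd was also high in RG2833 replicate 3, at 28.4 against at most 10.1 CPM (0.89). C1ql3 was low in RG2833 replicate 4, at 91.3 against 112 CPM or more (0.78).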

How the results depend on the processing

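The ventral pole and pan-excitatory covariates, and all alternatives for the wider subfield lists and for Homer3, Cacng5, Calb2, Htr2c and Rbfox3, were chosen after seeing the data. The 599 calls over all genes became 1286 with DESeq2's Wald test, 180 with the replicate block, 146 with the choroid plexus covariate, 5 with the pan-neuronal, 5 with the ventral pole, 4 with the pan-excitatory and 2 with the ribosomal RNA covariate, and 98 to 1556 when 1 animal was left out, highest without untreated replicate 4. Library totals only gave 38.3% of calls higher and limma-voom 53.6%, against 47.4%.

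The count of 1 member called became 0 with the replicate block and each of the 5 covariates, and ran from 0 to 3 when 1 animal was left out. Nptx1 kept its direction in every fit but did not pass with the replicate block (0.55, edgeR adjusted p = 0.0536) or with the covariates for ribosomal RNA (0.32), choroid plexus (0.54), pan-neuronal (0.23), ventral pole (0.49) and pan-excitatory genes (0.17), and ran from 0.44 to 0.59 without 1 animal. The 2 wider subfield genes called became 3 with limma trend (pseudocount 1) and with DESeq2's Wald test, 1 without the filter, with a mean count of at least 50, with the replicate block and with the choroid plexus covariate, 0 with the other 4 covariates, and 0 to 4 without 1 animal.

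None of the members that changed sign was called by edgeR with all 10 animals. Fibcd1 reversed under limma-voom (0.051), limma trend with pseudocount 1 (0.045) or 0.1 (0.046), the replicate block (0.035), the ribosomal RNA (0.16) and ventral pole (0.18) covariates, and ran from -0.25 to 0.19 without 1 animal. The ribosomal RNA covariate also reversed Prox1 (-0.11), Calb1 (0.33), Wfs1 (-0.59) and Bok (-0.092); the pan-excitatory covariate reversed Calb1 (0.14), Bok (-0.14) and Amigo2 (-0.33), and the pan-neuronal covariate Amigo2 (-0.61), which ran from -0.10 to 0.36 without 1 animal. The cause was not tested.

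Under every alternative run each balance moved by less than its untreated SD (0.91 to 1.23), but dentate minus CA2 and CA3 moved by more than its RG2833 SD of 0.17 under several, and ran from -0.53 to 0.23 without 1 animal. That balance, -0.19, turned positive with the median over genes (0.0036), the wider lists (0.020), without Calb1 (0.21) and without untreated replicate 2 (0.23). CA1 minus CA2 and CA3, 0.29, turned to -0.038 without Wfs1 and -0.00052 without untreated replicate 1. Same-numbered animals are different animals, with a mean correlation of deviations of -0.066, so the numbers did not pair them.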

Other observations

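Lists for other cells and neighbouring regions gave few calls (edgeR adjusted p under 0.05). None of 9 interneuron genes was called, with a median log2 fold change of -0.10, and their summed level was 570 to 1009 CPM in untreated and 607 to 810 CPM in RG2833 animals. Of 4 oligodendrocyte, 4 astrocyte and 3 endothelial genes 0 were called, with medians of 0.10, 0.078 and -0.30. Of 5 microglial genes 1 was called, Aif1, lower in RG2833 animals (log2 fold change -0.74, edgeR adjusted p = 0.0496), where the background for lower calls was 2.67%. Their median was -0.11, and 1 of them, Cx3cr1, was above 0, at 0.20. Aif1 was not followed through the processing alternatives. Of 4 tested thalamic and 4 neocortical genes 0 were called, with medians of -0.21 and 0.033. Of 3 tested choroid plexus genes 0 were called, with a median of -1.81 and all 3 below 0. Among them Kcne2 averaged 4.16 ± 2.86 CPM without the drug against 1.57 ± 0.441 CPM with it (SD, n = 5; edgeR adjusted p = 0.0631), without overlap, and was highest in untreated replicate 1, as were Ttr and Clic6.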
